A study of Mus musculus with 4 samples.

Results

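Described here are the 84 genes whose level differed at least 2-fold the same way when D-glucose was added to mouse podocytes carrying either of 2 short hairpins, of 14187 genes whose counts averaged 50 or more across all 4 libraries. They were chosen by their TMM-scaled ratios of counts (TMM scales libraries on the assumption that most genes do not differ between them) in both pairs, sh-NC/HG to sh-NC and sh-JAML/HG to sh-JAML, and are called the shared genes. Of the 84 genes, 47 were higher (0.331% of those tested) and 37 were lower (0.261%) with added glucose in both pairs. Since the ratios chose the genes, they are given as a description with no test.

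RNA was sequenced from MPC, a conditionally immortalised murine podocyte line that was kept without interferon-gamma at 37 °C for 7 days to differentiate. All 4 libraries came from cells with a short hairpin, either the control hairpin sh-NC or the hairpin sh-JAML, and sh-NC/HG and sh-JAML/HG received D-glucose to 40 mmol/L, for 24 h per the series' design text. The labels give no glucose level for the untreated medium and no osmotic control, so glucose and osmolarity cannot be told apart. There was 1 library per group and none of the groups has a replicate, so the spread between cultures of a group is unknown and the pairs are not replicates of one another.

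Podocytes are the epithelial cells that cover the outer face of the glomerular capillaries, and their interlocking foot processes carry the slit diaphragm, the last barrier of the kidney filter. Glucose enters these cells through facilitative transporters and is used in glycolysis, in the hexosamine and polyol side pathways and in lipid synthesis, and raised glucose also draws water from cells, which is answered by the osmotic stress response. High glucose in culture is a common model of the podocyte's exposure in diabetes, in which these cells lose foot processes and detach.

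The deposited counts summed to between 79330461 and 94341975 per library. Low counts piled up at multiples of 4, though other values occurred too. On this ground 4 units were assumed to be 1 sequenced fragment, and 3 fragments (12 units) were taken as the floor under which a level cannot be told from 0. The counting limits and every bound against the floor rest on this assumption. That floor lay between 0.129 and 0.151 CPM, the TMM-scaled count relative to the size of its library. Values of a pair are given with the untreated library first, and the limits in parentheses beside a ratio are exact 95% limits for counting error alone. Jaml, the gene the hairpin was made against, was at 0 in all 4 libraries, which allows a level of up to the floor and leaves the knockdown unchecked. Of 24 podocyte marker genes, 17 passed the count minimum. Among these, Synpo stood between 172 and 246 CPM, Cd2ap between 219 and 304 CPM and Podxl between 10.1 and 23.8 CPM. Some defining markers of mature cells were at or near the floor: Tcf21 had 0 counts in all 4 libraries and Nphs1 between 17 and 35.

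The shared genes were few beside those of either pair alone. In the sh-NC pair 660 genes (4.65%) were 2-fold or more higher with glucose and 464 (3.27%) were lower by as much, and in the sh-JAML pair 186 (1.31%) were higher and 222 (1.56%) lower. The 47 genes higher in both are 7.12% of those higher in the sh-NC pair and 25.3% of those higher in the sh-JAML pair, and the 37 lower in both are 7.97% and 16.7%. A further 51 genes were higher in sh-NC/HG and lower in sh-JAML/HG, and 28 went the other way, each by at least 2-fold in both pairs.

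**Figure D1:**
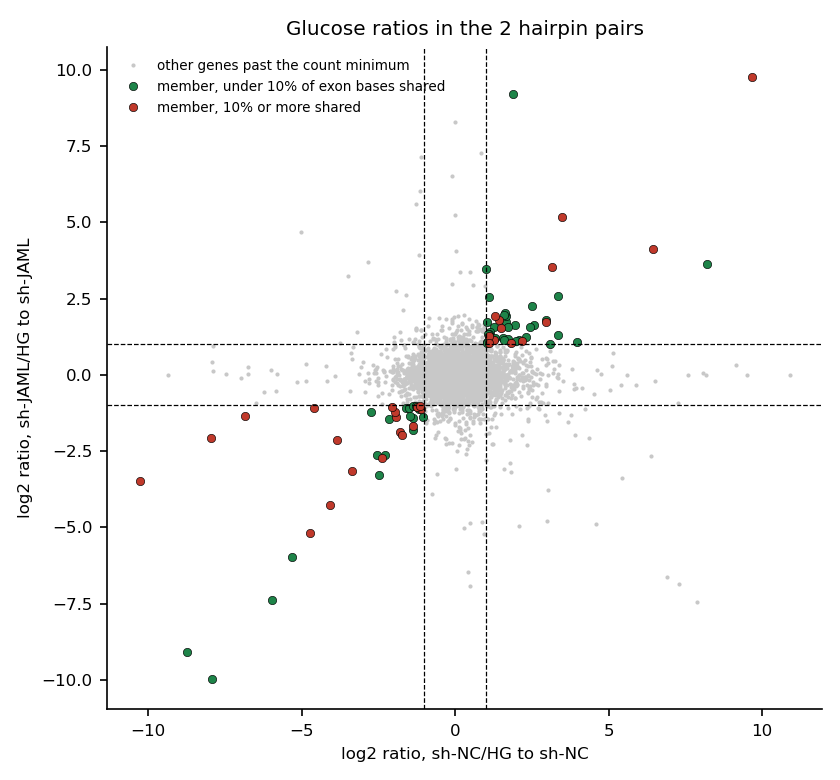
The log2 ratio with glucose in the sh-NC pair (horizontal axis) against that in the sh-JAML pair (vertical axis), 1 point per gene past the count minimum, with dashed lines at 2-fold. The 84 shared genes lie in the upper right (47) and lower left (37) corners, coloured by whether at least 10% of their exon bases are also exon bases of another gene.

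The adult globins, the oxygen carriers of red blood cells, were near the floor in both glucose libraries. All 4 adult globin genes that passed the count minimum were lower in both pairs. Counts of Hba-a1, an alpha-globin gene, were 979 and 28 in the sh-NC pair and 1075 and 17 in the sh-JAML pair. Those of its near-identical copy Hba-a2 were 744 and 13 in the sh-NC pair and 780 and 4 in the sh-JAML pair. Reads cannot be split safely between such copies, so both were also summed: the alpha globins were lower by 49.3-fold (26.7 to 102) in the sh-NC pair and by 93.1-fold (40.4 to 278) in the sh-JAML pair. The beta-globin genes followed the same order. Counts of Hbb-bs were 842 and 3 in the sh-NC pair and 947 and 0 in the sh-JAML pair. Those of Hbb-bt were 396 and 0 in the sh-NC pair and 511 and 0 in the sh-JAML pair, which makes Hbb-bt at least 38.7-fold lower in the sh-NC pair and at least 44.9-fold in the other, against the floor per library. In every one of these genes the untreated libraries of both hairpins stood close to each other and far above both glucose libraries.

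The bases before the start of 3 of these genes are shown because the family moved together, with Hba-a2 left out as it matches Hba-a1 in all 247 bases aligned. Each is the 250 bases before the start of the RefSeq gene (GRCm38.p6), 5′ to 3′ on the gene's strand, with capitals marking CCAAT (a promoter box bound by NF-Y and other factors) on either strand and, in Hbb-bt, TATAAA. The Hba-a1 stretch is chr11:32283422-32283671 on the plus strand, that of Hbb-bs is chr7:103827929-103828178 on the minus strand, and that of Hbb-bt is chr7:103813924-103814173 on the minus strand.
Hba-a1: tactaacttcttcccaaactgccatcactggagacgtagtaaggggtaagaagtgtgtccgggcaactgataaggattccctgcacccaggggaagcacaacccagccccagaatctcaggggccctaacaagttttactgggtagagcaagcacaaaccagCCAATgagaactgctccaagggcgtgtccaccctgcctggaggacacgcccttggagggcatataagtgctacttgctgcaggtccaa
Hbb-bs: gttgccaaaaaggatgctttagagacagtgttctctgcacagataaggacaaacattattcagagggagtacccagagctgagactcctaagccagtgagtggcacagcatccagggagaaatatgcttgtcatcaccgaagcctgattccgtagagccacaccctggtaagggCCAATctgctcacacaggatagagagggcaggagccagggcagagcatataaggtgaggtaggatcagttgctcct
Hbb-bt: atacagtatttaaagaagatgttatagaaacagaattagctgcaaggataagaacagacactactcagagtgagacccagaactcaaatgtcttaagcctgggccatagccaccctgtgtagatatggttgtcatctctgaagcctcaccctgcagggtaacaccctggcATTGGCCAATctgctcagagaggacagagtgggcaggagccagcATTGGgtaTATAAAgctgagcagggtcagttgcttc
All 4 globin stretches hold CCAAT on the gene's own strand, which begins 88 bases before the start in Hba-a1, 91 in Hba-a2, 76 in Hbb-bs and 75 in Hbb-bt. Over 9065 genes with such a window (250 bases before to 50 after the start, either strand), 39.5% hold CCAAT and 6.51% hold TATAAA. Hbb-bs and Hbb-bt share 127 of 249 aligned bases (51%). Windows were found for only 44 of the 84 shared genes (52.4%, under the 80% required), so motifs and base composition were not compared over the set.

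Globins are made by erythroid cells, and in bulk RNA fewer cells of a type and less RNA per cell cannot be told apart. Of 17 other red cell markers in the table, 4 passed the count minimum and none was among the shared genes. The defining markers Slc4a1 (the anion exchanger of the red cell membrane), Car1, Hemgn and Tspo2 were at 0 in all 4 libraries. Alas2, an erythroid enzyme of haem synthesis, had counts of 24 and 17 in the sh-NC pair and 60 and 34 in the sh-JAML pair. Not all markers short of the count minimum shared this order. Counts of Ank1 were 25 and 62 in the sh-NC pair and 40 and 64 in the sh-JAML pair. Those of Klf1 were 25 and 48 in the sh-NC pair and 59 and 9 in the sh-JAML pair. The summed level of the red cell markers was between 87.1 and 87.9 CPM in the untreated and between 81.4 and 101 CPM in the glucose libraries, most of it from Slc25a37, an iron carrier of mitochondria. The part of red cells in the globin difference was not tested.

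Of 55 genes of the keratin family, 6 passed the count minimum, and 2 of these, Krt5 and Krt12, were lower in both pairs at low counts. Krt5, a keratin of basal epithelial cells, stood at 2.15 CPM without and 0.375 CPM with added glucose in the sh-NC pair, and 1.59 and 0.154 CPM in the sh-JAML pair. It was 5.73-fold (2.73 to 13.5) and 10.4-fold (3.37 to 48.8) lower. Krt12, known from the corneal epithelium, had counts of 114 and 4 in the sh-NC pair and 138 and 3 in the sh-JAML pair. It was 33.4-fold (5.54 to 1366) and 48.5-fold (6.65 to 5687) lower, a size that rests on glucose counts under the floor. Of its exon bases, 54.4% are shared with other genes, the largest part with A830036E02Rik. Krt14, the usual partner of Krt5, fell short of the count minimum with counts of 35 and 0 in the sh-NC pair and 36 and 0 in the sh-JAML pair. Both glucose libraries lay under both untreated libraries for each of the 3, which were picked out after their values were seen. Krt8, also short of the count minimum, had counts of 35 and 24 in the sh-NC pair and 16 and 42 in the sh-JAML pair. The 55 keratin genes together had 38.3 and 47.1 CPM in the sh-NC pair and 35.4 and 34.7 CPM in the sh-JAML pair, so their sum did not share this order.

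Among genes with at least 1000 counts on average and under 10% of exon bases shared with another gene, 10 of 8310 (0.120%) met the rule, 6 higher and 4 lower. These rest on the most reads and the clearest gene assignment. The 6 higher ones belong to no common list.

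Tmem170b, which encodes a small multi-pass membrane protein (chr13:41605907-41641355 on mm10), stood at 2.97 CPM without and 30.5 CPM with added glucose in the sh-NC pair, and 3.86 and 23.4 CPM in the sh-JAML pair. Its ratios were 10.3-fold (7.86 to 13.6) and 6.06-fold (4.76 to 7.8), the only ones of the 6 past 4-fold. Both glucose libraries lay far above both untreated ones, which differed little from each other. Xpnpep3, a mitochondrial aminopeptidase whose loss causes a cystic kidney disease in people (chr15:81400138-81457482), stood at 14.4 CPM without and 45.5 CPM with added glucose in the sh-NC pair, and 12.5 and 47.3 CPM in the sh-JAML pair. That is 3.15-fold (2.76 to 3.6) and 3.78-fold (3.29 to 4.36) higher. The hairpins again gave nearly the same levels.

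Socs6, a member of the suppressor of cytokine signalling family that directs bound receptors and kinases to ubiquitination (chr18:88665224-88927481), stood at 12.5 CPM without and 30.9 CPM with added glucose in the sh-NC pair, and 15.7 and 36.2 CPM in the sh-JAML pair. It was 2.48-fold (2.14 to 2.87) and 2.31-fold (2.02 to 2.65) higher. Of the 8 SOCS family genes, all past the count minimum, Socs6 alone was at least 2-fold higher in both pairs. Socs3, the inhibitor induced by STAT3, was 3.45-fold (2.96 to 4.03) higher in the sh-NC pair and 1.09-fold (0.903 to 1.31) in the sh-JAML pair. For Socs1, Socs2 and Cish the ratios were between 1.52 and 1.85 in the sh-NC pair and between 0.872 and 1.05 in the sh-JAML pair. Socs4, Socs5 and Socs7 had ratios between 0.793 and 1.12 in the 2 pairs.

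Slc35e2, of the nucleotide-sugar transporter family of solute carriers (chr4:155601416-155623340), stood at 12.2 CPM without and 26.7 CPM with added glucose in the sh-NC pair, and 11.5 and 30.5 CPM in the sh-JAML pair. This was 2.19-fold (1.89 to 2.56) and 2.65-fold (2.28 to 3.1) higher. It shares 8.21% of its exon bases with other genes, the largest part with the antisense gene Gm16023. The counts of Slc35e2 and Gm16023 together were 1.996-fold and 2.53-fold higher, just short of the rule in the sh-NC pair. The remaining 2 are protein-coding genes known by clone names. 2610001J05Rik (chr6:13867735-13871518) stood at 8.31 CPM without and 20.1 CPM with added glucose in the sh-NC pair, and 9.77 and 28.7 CPM in the sh-JAML pair, or 2.42-fold (2.03 to 2.91) and 2.94-fold (2.49 to 3.47) higher. For 4930453N24Rik (chr16:64751751-64771161) the levels were 11.9 CPM without and 39 CPM with added glucose in the sh-NC pair, and 12.9 and 29.5 CPM in the sh-JAML pair, or 3.29-fold (2.84 to 3.81) and 2.28-fold (1.97 to 2.64) higher. In 2610001J05Rik the sh-JAML library was the higher one in both glucose conditions, and in 4930453N24Rik only without added glucose.

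On the lower side, Ctdsp2 had the most counts of all 84 genes, between 10782 and 27027 per library. Ctdsp2 encodes a small phosphatase of the RNA polymerase II C-terminal domain that takes part in silencing neuronal genes (chr10:126978717-126999975). It stood at 330.4 CPM without and 128 CPM with added glucose in the sh-NC pair, and 337 and 127 CPM in the sh-JAML pair. Differences of 2.59-fold (2.48 to 2.7) and 2.64-fold (2.53 to 2.76) put both glucose libraries below both untreated ones. The hairpins lay close together in both glucose conditions. Its relatives did not share this size of difference: the ratio with glucose was 0.814 and 0.926 for Ctdsp1 and 0.764 and 0.855 for Ctdspl in the 2 pairs.

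Pheta1, an endosomal adaptor that binds OCRL, the lipid phosphatase lost in oculocerebrorenal syndrome (chr5:121848984-121854632), stood at 22.2 CPM without and 3.84 CPM with added glucose in the sh-NC pair, and 21.6 and 3.51 CPM in the sh-JAML pair. It was lower by 5.79-fold (4.61 to 7.36) and 6.15-fold (4.8 to 7.98). No other member of the shared set was on its chromosome. Wdr81, a WD-repeat protein that acts in endosome maturation and in autophagy (chr11:75440944-75454717), stood at 67 CPM without and 23.6 CPM with added glucose in the sh-NC pair, and 63.2 and 30 CPM in the sh-JAML pair. That is 2.84-fold (2.57 to 3.14) and 2.11-fold (1.91 to 2.32) lower. Snapc2, a subunit of the complex that starts transcription of small nuclear RNA genes (chr8:4253080-4256220), stood at 60.2 CPM without and 26.8 CPM with added glucose in the sh-NC pair, and 59.1 and 27.4 CPM in the sh-JAML pair. It was 2.24-fold (2.03 to 2.47) and 2.16-fold (1.96 to 2.39) lower. For these 3 genes, as for Ctdsp2, both glucose libraries were below both untreated libraries, and the levels of the hairpins lay close together.

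**Figure D2:**
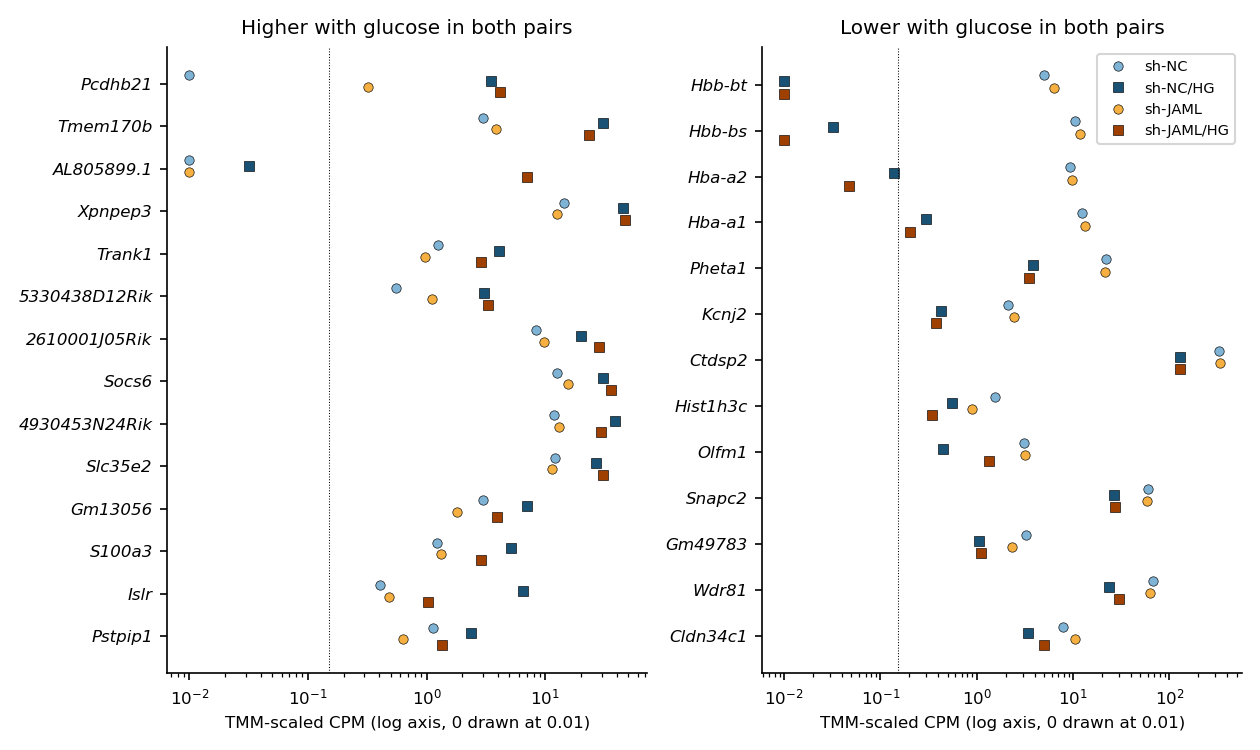
TMM-scaled CPM on a log axis in each of the 4 libraries (circles untreated, squares with added glucose, blue sh-NC, orange sh-JAML) for the genes described by rule with under 10% of exon bases shared, with the highest floor as a dotted line and a level of 0 drawn at 0.01. Tmem170b, Xpnpep3, Pheta1, Ctdsp2 and Snapc2 show the 2 hairpins side by side at each glucose condition, while Islr, Olfm1 and AL805899.1 show them apart.

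Snapc2 lies 1.66 kb from Gm49320, one of a group of shared genes in which neighbours moved in opposite directions. Gm49320 (chr8:4238865-4251423) is annotated as a readthrough gene, a transcript that joins the exons of adjacent genes, here those of Map2k7 and Tgfbr3l. All of its exon bases are shared with other genes. Map2k7, the kinase that activates JNK (chr8:4238740-4247897), stood at 63.9 CPM without and 19.1 CPM with added glucose in the sh-NC pair, and 63 and 16.2 CPM in the sh-JAML pair. Gm49320 stood at 0.553 CPM without and 49.1 CPM with added glucose in the sh-NC pair, and 3.07 and 53.2 CPM in the sh-JAML pair. Map2k7 was thus 3.35-fold (3 to 3.74) and 3.89-fold (3.45 to 4.39) lower, and Gm49320 was 88.7-fold (49.4 to 178) and 17.4-fold (13.4 to 22.8) higher. The counts of Map2k7, Gm49320 and Tgfbr3l together were 5376 and 6826 in the sh-NC pair and 5546 and 6109 in the sh-JAML pair, or 1.08-fold and 1.04-fold higher after scaling. The sum of the locus was nearly level, while its split between gene models was not. Map2k4, the other JNK-activating kinase, had ratios of 1.02 and 1.08.

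The Cpne1 locus had the same form. Cpne1, a copine that binds membrane phospholipids in the presence of calcium (chr2:156071842-156111965), stood at 66.5 CPM without and 25.5 CPM with added glucose in the sh-NC pair, and 62.7 and 19.5 CPM in the sh-JAML pair, or 2.61-fold (2.37 to 2.88) and 3.21-fold (2.87 to 3.6) lower. The readthrough gene Gm28036 (chr2:156071845-156127092), which joins Cpne1 with Rbm12, stood at 3.65 CPM without and 40.7 CPM with added glucose in the sh-NC pair, and 1.15 and 41.6 CPM in the sh-JAML pair, or 11.2-fold (8.78 to 14.4) and 36.3-fold (24 to 57.6) higher. Summed with Rbm12, an RNA-binding protein gene, the counts were 8195 and 10038 in the sh-NC pair and 7631 and 8262 in the sh-JAML pair. The locus was therefore 1.04-fold and 1.03-fold higher.

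Genes with most of their transcripts tagged as readthrough by the annotation, Cpne1 among them, made up 11 of the 84 shared genes (13.1%), against 97 of all 14187 (0.684%). Gm44502, which joins Chkb (choline kinase beta) and Cpt1b (the muscle form of carnitine palmitoyltransferase), stood at 4.92 CPM without and 13.9 CPM with added glucose in the sh-NC pair, and 7.26 and 21.1 CPM in the sh-JAML pair, or 2.83-fold (2.25 to 3.59) and 2.91-fold (2.41 to 3.53) higher. Chkb itself stood at 44.2 and 30.9 CPM in the sh-NC pair and 44.5 and 37.5 CPM in the sh-JAML pair, and the sum of the 4 genes of the locus had ratios of 0.889 and 1.13. Gm28037, which joins exons of the ribosomal protein gene Rpl24 and of Zbtb11, stood at 26.7 CPM without and 6.88 CPM with added glucose in the sh-NC pair, and 24.4 and 10.5 CPM in the sh-JAML pair, or 3.89-fold (3.25 to 4.66) and 2.32-fold (1.98 to 2.73) lower. The Rpl24 locus summed to ratios of 1.27 and 1.04. Of the others of this kind, Gm28035 and Gm28557 were higher and Gm29253, Gm20537, Gm26920 and Gm28051 were lower, in loci whose sums had ratios between 0.646 and 1.57. Gm28051 had 230 counts in sh-NC, 3 in sh-JAML and 0 in both glucose libraries, so its ratio in the sh-JAML pair has no base.

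**Figure D3:**
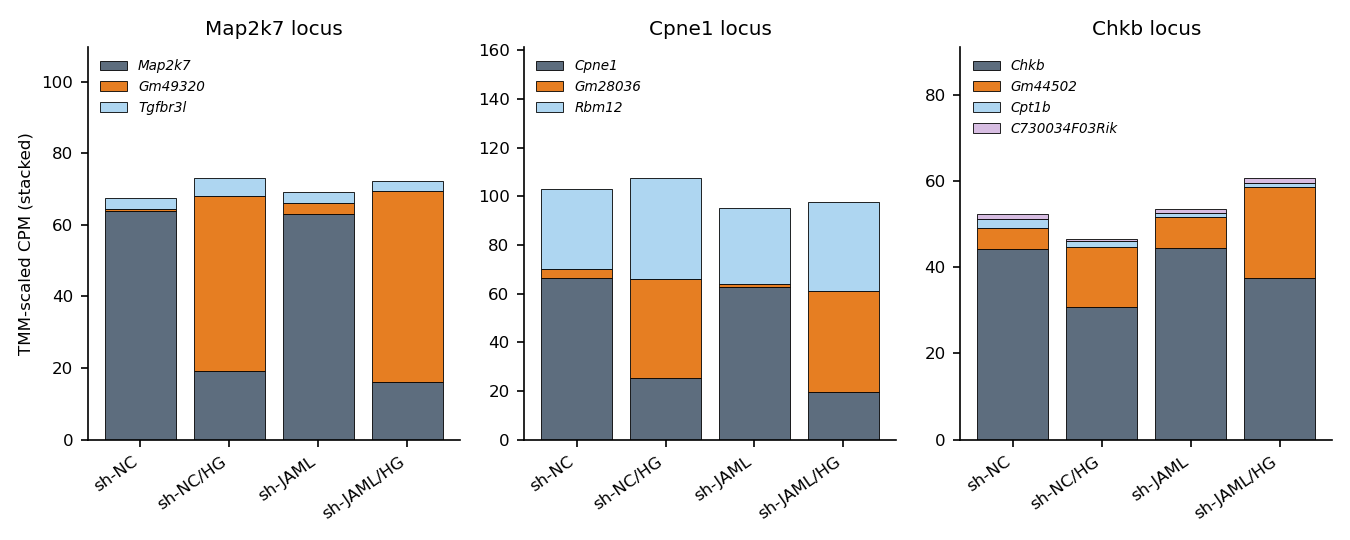
Stacked TMM-scaled CPM of the genes that share exon bases at 3 loci, in each of the 4 libraries. At the Map2k7 and Cpne1 loci the orange readthrough gene is larger and the grey gene smaller with glucose while the height of the bars stays between 67.6 and 73.1 CPM and between 95.1 and 108 CPM; at the Chkb locus the bars run from 46.5 to 60.8 CPM.

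The clustered protocadherins gave 5 shared genes. These cadherin-like adhesion proteins are encoded in gene clusters, and the gamma genes each join their own first exon to constant exons that all of them share. The share of exon bases that other genes hold too is 38.3% in Pcdhgb4, 66.9% in Pcdhgc3, 73.6% in Pcdhga11 and 45.4% in Pcdhga5. Reads from such bases cannot be assigned safely to a single gene, and the counting limits do not cover this. Pcdhgb4 had counts of 8 and 8488 in the sh-NC pair and 6 and 6316 in the sh-JAML pair, and its ratios were 904-fold (250 to 7472) and 999-fold (233 to 13894) higher. Its untreated counts stand for 2 fragments or fewer, so the size of these ratios is loosely bounded. Pcdhgc3 stood at 10.8 CPM without and 97.2 CPM with added glucose in the sh-NC pair, and 6.98 and 80.4 CPM in the sh-JAML pair, or 9.01-fold (7.83 to 10.4) and 11.5-fold (9.69 to 13.8) higher. Pcdhga11 had counts of 1165 and 0 in the sh-NC pair and 41 and 3 in the sh-JAML pair, at least 114-fold lower in the sh-NC pair and 14.4-fold (1.69 to 1788) lower in the sh-JAML pair. Pcdhga5 stood at 2.84 CPM without and 0.268 CPM with added glucose in the sh-NC pair, and 0.511 and 0.0473 CPM in the sh-JAML pair, or 10.6-fold (4.65 to 29.4) and 10.8-fold (1.55 to 468) lower. In Pcdhgb4 the difference between hairpins was small beside that with glucose. Pcdhgc3 was lower in sh-JAML than in sh-NC both without and with added glucose. Pcdhga11 and Pcdhga5 were far higher in sh-NC than in sh-JAML before glucose was added.

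Other gamma genes took large counts in 1 library only, such as Pcdhga6 with 2024 counts in sh-NC and at most 9 in the others, and Pcdhga9 with 6332 in sh-JAML and at most 521 in the others. Summed over the 22 gamma genes, the counts were 8464 and 19786 in the sh-NC pair and 8356 and 15410 in the sh-JAML pair. This sum was 1.99-fold (1.89 to 2.10) and 1.75-fold (1.66 to 1.85) higher with glucose. The gamma sum was higher in both pairs by more than the sums of the Map2k7 and Cpne1 loci, though by less than the rule requires. The 22 beta genes, which are single exons, summed to ratios of 0.989 (0.934 to 1.05) and 1.07 (1.01 to 1.14). One of them, Pcdhb21, was shared, with counts of 0 and 327 in the sh-NC pair and 26 and 353 in the sh-JAML pair. It was at least 23.2-fold higher in the sh-NC pair and 12.9-fold (5.85 to 34.4) higher in the sh-JAML pair.

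**Figure D4:**
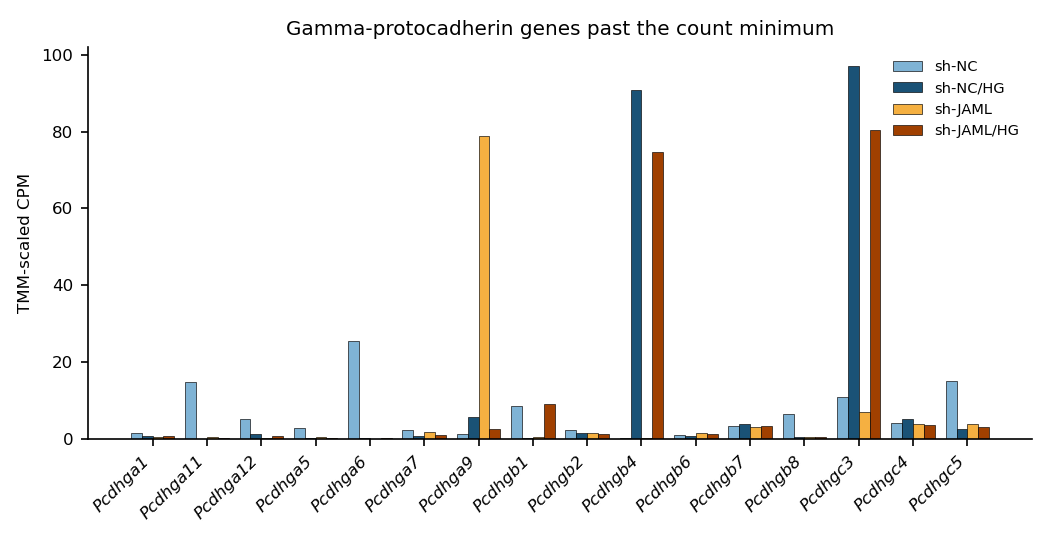
TMM-scaled CPM of the 16 gamma-protocadherin genes past the count minimum, with a bar for each library (light blue sh-NC, dark blue sh-NC/HG, light orange sh-JAML, dark orange sh-JAML/HG). Pcdhgb4 and Pcdhgc3 hold the tall bars of both glucose libraries, between 74.7 and 97.2 CPM, and Pcdhga9 and Pcdhga6 hold tall bars of 1 untreated library each.

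Overlap between gene models was common in the whole set. At least 10% of exon bases were shared with another gene in 31 of the 84 (36.9%; 13 higher and 18 lower), against 2436 of all genes tested (17.2%), and at least 50% in 17 (20.2%) against 460 (3.24%). Genes linked by 10% or more of the exon bases of the smaller one were joined into loci and their counts summed. The 84 genes fell into 79 loci, of which 30 held another gene with counts. Of those 30 sums, 6 were at least 2-fold in the same direction in both pairs and 17 were within 1.5-fold in both. For 55 of the 84 genes the sum of their own locus met the rule in their direction. Of these, 49 were alone in their locus, 30 higher and 19 lower. Over all 12886 loci past the count minimum, 33 were higher and 23 lower in both pairs, and 1 of these, the locus of Des (desmin), held no shared gene.

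Low counts were the other common feature. The median of the mean count was 121 among the 84 and 2626 among all genes tested. A mean count under 200 was found in 53 of the 84 (63.1%), against 15.6% of all genes, and of 1000 or more in 18 (21.4%), against 68.2%. In genes with under 10% shared exon bases, the share that met the rule was 2.13% (35 of 1641) at mean counts under 200, 0.445% (8 of 1798) from 200 to 1000, and 0.120% (10 of 8310) above that. With more overlap it was 3.15% (18 of 571), 1% (5 of 500) and 0.586% (8 of 1365). At each level the share was higher with overlap, and in either group it was lower at higher counts. In 68 of the 84 genes (34 in each direction) the counting intervals of both ratios lay beyond equality, and in 24 (11 higher and 13 lower) beyond 2-fold. A library at or under the floor occurred in 19 of the 84, and 2 of these had both libraries of a pair there, Gm28051 and AL805899.1.

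**Figure D5:**
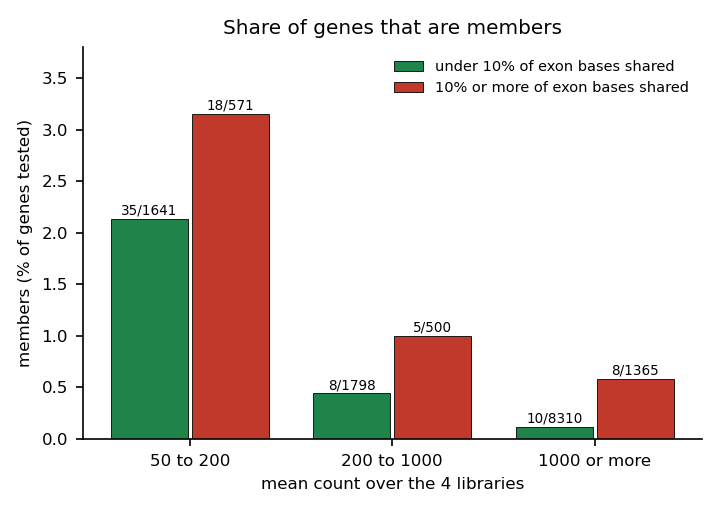
Percent of the genes tested that met the rule (vertical axis), by mean count (horizontal axis) and by whether at least 10% of exon bases are shared with another gene, with the number of genes above each bar. The bars fall from 2.13% to 0.120% without overlap and from 3.15% to 0.586% with it.

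Of the described genes with lower counts, Kcnj2, an inward rectifier potassium channel that sets the resting potential, stood at 2.11 CPM without and 0.429 CPM with added glucose in the sh-NC pair, and 2.42 and 0.378 CPM in the sh-JAML pair, or 4.93-fold (2.43 to 11) and 6.39-fold (3 to 15.6) lower. Of 15 inward rectifier genes 4 passed the count minimum, and Kcnj2 alone was shared. Kcnj16, a partner channel of the kidney tubule, went in opposite directions, with ratios of 0.685 (0.631 to 0.744) and 2.26 (1.92 to 2.67). Olfm1, a secreted olfactomedin glycoprotein, stood at 3.07 CPM without and 0.45 CPM with added glucose in the sh-NC pair, and 3.15 and 1.35 CPM in the sh-JAML pair, or 6.82-fold (3.51 to 14.6) and 2.34-fold (1.48 to 3.78) lower. Its untreated levels were alike, and sh-NC/HG was the lowest of the 4 libraries. Cldn34c1, of the claudin family of tight junction proteins, stood at 7.84 CPM without and 3.38 CPM with added glucose in the sh-NC pair, and 10.5 and 5.01 CPM in the sh-JAML pair, or 2.32-fold (1.76 to 3.09) and 2.09-fold (1.65 to 2.66) lower. Hist1h3c, a replication-dependent histone H3 gene, stood at 1.56 CPM without and 0.557 CPM with added glucose in the sh-NC pair, and 0.885 and 0.343 CPM in the sh-JAML pair, or 2.8-fold (1.42 to 5.83) and 2.58-fold (1.04 to 7.2) lower. The untreated levels of Hist1h3c differed between hairpins, and its 2 sh-JAML levels lay below those of the same condition in sh-NC.

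Several genes met the rule with unlike ratios in the 2 pairs. Islr, a leucine-rich secreted protein of mesenchymal cells also known as meflin, stood at 0.402 CPM without and 6.54 CPM with added glucose in the sh-NC pair, and 0.486 and 1.03 CPM in the sh-JAML pair, or 16.2-fold (8.04 to 38.3) and 2.12-fold (0.954 to 5.06) higher. Its level was high in sh-NC/HG and low in the other 3 libraries. S100a3, a small calcium-binding protein, stood at 1.22 CPM without and 5.15 CPM with added glucose in the sh-NC pair, and 1.32 and 2.9 CPM in the sh-JAML pair, or 4.23-fold (2.72 to 6.84) and 2.19-fold (1.37 to 3.6) higher. It is linked by shared exon bases to S100a4, and the sum of that locus had ratios of 1.98 and 0.639. AL805899.1, a long noncoding RNA gene that holds Mir31, had counts of 0 and 3 in the sh-NC pair and 0 and 591 in the sh-JAML pair, so it was at least 46.7-fold higher in the sh-JAML pair and had no ratio above the floor in the sh-NC pair. That gene met the rule through the prior count added to both libraries.

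Trank1, a large protein with tetratricopeptide and ankyrin repeats, stood at 1.24 CPM without and 4.1 CPM with added glucose in the sh-NC pair, and 0.972 and 2.88 CPM in the sh-JAML pair, or 3.3-fold (2.1 to 5.36) and 2.97-fold (1.76 to 5.23) higher. Pstpip1, an adaptor that links the cytoskeleton to the pyrin inflammasome, stood at 1.14 CPM without and 2.39 CPM with added glucose in the sh-NC pair, and 0.635 and 1.35 CPM in the sh-JAML pair, or 2.09-fold (1.26 to 3.57) and 2.12-fold (1.06 to 4.48) higher. Its level was below 3 CPM in every library. Among noncoding genes, 5330438D12Rik stood at 0.553 CPM without and 3.05 CPM with added glucose in the sh-NC pair, and 1.11 and 3.29 CPM in the sh-JAML pair, or 5.52-fold (2.91 to 11.6) and 2.96-fold (1.82 to 5.01) higher. Gm13056 stood at 2.98 CPM without and 7.02 CPM with added glucose in the sh-NC pair, and 1.79 and 3.95 CPM in the sh-JAML pair, or 2.36-fold (1.74 to 3.23) and 2.2-fold (1.47 to 3.35) higher, and lies 88.4 kb from Fam131c, which was higher too. In Gm13056, as in Trank1, the sh-JAML library was below the sh-NC library of the same glucose condition. Gm49783 stood at 3.22 CPM without and 1.06 CPM with added glucose in the sh-NC pair, and 2.33 and 1.1 CPM in the sh-JAML pair, or 3.03-fold (1.88 to 5.04) and 2.12-fold (1.26 to 3.65) lower.

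Usp29, a deubiquitinase gene of the imprinted Peg3 domain, was picked out after its values were seen. It stood at 10 CPM without and 0.686 CPM with added glucose in the sh-NC pair, and 8.85 and 2 CPM in the sh-JAML pair, or 14.6-fold (8.8 to 26.1) and 4.43-fold (3.15 to 6.35) lower. Of its exon bases, 14.8% are shared with other genes, the largest part with Zim3. Also lower and short of the rule for description were Umad1 (11.6, 5.28, 12.6 and 6.19 CPM in the order sh-NC, sh-NC/HG, sh-JAML, sh-JAML/HG), Fmo5 (a flavin monooxygenase), Foxq1 (a forkhead transcription factor, with 0 counts in sh-NC/HG), Ly6g5b, B430218F22Rik, and the noncoding genes or pseudogenes Gm10125, Gm26533, Gm31763, C030014I23Rik, A330023F24Rik, Gm14042 and Gm13071.

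The other higher genes all stood below 9 CPM in every library. They include the motor and cytoskeletal genes Myo15, Myh14, Katnal2, Ttll9, Drp2 and Cdc42bpg, the signalling genes Tnik (a kinase of the Wnt pathway), Pde4d (a cAMP phosphodiesterase), Tnfrsf9 and Cd72 (leukocyte receptors), the innate immunity genes Pycard and Trim5, the transcription factors Sp5 and Zfp296, and Lama1, a laminin chain of the early glomerular basement membrane. The rest are Fam131c, Fam167a, Dcst2, 1500015O10Rik, A530016L24Rik, A930006K02Rik, Gm26541, AC093020.1, Gm26513, Gm15834 and Gm45342. Lama1 had counts of 19 and 196 in the sh-NC pair and 9 and 20 in the sh-JAML pair, and its ratios were 8.79-fold (3.45 to 29.3) and 2.11-fold (0.364 to 18.8) higher. The sh-JAML limits include equality.

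At the threshold, the higher genes closest inside it were Lama1 (log2 ratios of 3.07 and 1.002) and Trim5 (1.02 and 3.45). Just outside were Slc16a14 (1.98 and 0.99) and 4930581F22Rik (1.05 and 0.99). Among lower genes, Umad1 (-1.14 and -1.02) and Ly6g5b (-1.26 and -1.02) were just inside, and Hspa1b (-0.99 and -1.19) and Zfp41 (-0.98 and -1.06) just outside. Hspa1b, an inducible heat shock protein, had counts of 2691 and 1592 in the sh-NC pair and 3159 and 1462 in the sh-JAML pair.

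Of 408 tested genes on 26 gene lists, 12 (2.94%) were shared, beside 84 of all 14187 (0.592%). These 12 stood on the lists of globins (4 of 4 tested), clustered protocadherins (5 of 27), the SOCS family (1 of 8), inward rectifiers (1 of 4) and histones (1 of 31), which were drawn up with earlier results of these data known. None of the 334 tested genes on the other 21 lists was shared. At a share of 0.592% over all genes a single list of this size would hold few or none, so nothing is read from its 0. Glycolysis had 0 of 23, with median log2 ratios of 0.46 in the sh-NC pair and 0.05 in the sh-JAML pair; over all genes tested both medians lay close to 0. The list of glucose-responsive genes and side pathways had 0 of 18 (0.03 and 0.03), fatty acid and triglyceride synthesis 0 of 21 (0.04 and 0.04), and cholesterol synthesis 0 of 25 (0.10 and 0.19). Of the cholesterol genes, 14 were above 0 in both pairs and none below 0 in both. The hyperosmotic response list had 0 of 13, with 9 genes below 0 in both pairs, none above, and medians of -0.45 and -0.38.

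Lists with unlike medians in the 2 pairs included the interferon-stimulated genes (0 of 28 shared, medians 1.07 and -0.21), NF-kB cytokines and chemokines (0 of 17, 1.13 and -0.48), MHC class II (0 of 7, -2.54 and -0.01), the mitochondrially encoded genes (0 of 13, -0.74 and 0.10), the histones (-1.17 and -0.11) and p53 targets (0 of 22, -0.45 and 0.12). Cell cycle genes had 0 of 30 shared, with 24 above 0 in both pairs and medians of 0.34 and 0.07. None was shared among podocyte markers (0 of 17), matrix and TGF-beta response (0 of 26), ER stress and amino acid response (0 of 20), NRF2 and antioxidant genes (0 of 18), or immediate-early and heat shock genes (0 of 21). The same holds for markers of leukocytes (0 of 3), endothelium (0 of 5), tubule (0 of 4) and mesangial and stromal cells (0 of 7). Over all genes, 3650 were above 0 and 3640 below 0 in both pairs.

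The hairpin was the contrast that the rule did not use, and asks whether the shared genes also differed between sh-JAML and sh-NC at like glucose. In an additive model with terms for glucose and hairpin (edgeR's quasi-likelihood test, Benjamini-Hochberg adjustment over all 14187 genes), no gene passed an adjusted p of 0.05 (0%), among the shared genes or elsewhere, and the smallest adjusted p of the 84 was 0.933. At an unadjusted p under 0.05 were 17 of the 84 (20.2%; 13 higher and 4 lower with glucose) and 400 of all genes (2.82%). The error of this model, on 1 residual degree of freedom, comes from how unlike the 2 glucose ratios were. The rule chose genes on both ratios, though it put no upper limit on how far apart they lay, so these shares are a description. DESeq2 called 48 genes (0.338%), of which 1 was shared: the readthrough gene Gm29253, at a log2 difference of 2.94 and an adjusted p of 0.0393. It had counts of 35 and 7 in the sh-NC pair and 290 and 45 in the sh-JAML pair, and the sum of its locus with Abcb6 and Atg9a did not exceed 1.5-fold with glucose in either pair.

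The hairpin term (sh-JAML relative to sh-NC) was below 0 in 32 of the 47 higher genes (68.1%; median -0.32 on the log2 scale) and in 17 of the 37 lower genes (45.9%; median 0.01), beside 49.3% of all genes. The mean count was under 200 in 31 of the 47, where 1 high library can carry a gene past the count minimum. That library was sh-NC/HG for Lama1 and sh-JAML/HG for Trim5, and it also moves the hairpin term. The part of this filter in the share was not tested. For the 10 genes with at least 1000 counts and little overlap the terms lay between -0.14 and 0.37, among them -0.01 ± 0.26 (SE) for Tmem170b, -0.07 ± 0.15 for Xpnpep3, 0.28 ± 0.15 for Socs6, 0.01 ± 0.10 for Ctdsp2, -0.08 ± 0.17 for Pheta1 and 0.13 ± 0.16 for Wdr81. None of the 10 had an unadjusted p under 0.05 by edgeR's quasi-likelihood test.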

How the data were processed

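The authors deposited a table of estimated counts per Ensembl gene and library, unscaled, made from TruSeq RNA libraries per the labels' protocols. Per the submitters' processing notes, CASAVA 1.8, TopHat2 2.0.6 and build mm10 were used. Which tool counted the reads is not given in the sources used here. Columns of the deposited table are named by condition, and the pair that names no hairpin was taken as sh-NC and sh-NC/HG by that name. The series' design text speaks of 4 treated samples, while 4 libraries in all were analysed here.

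Counts were scaled with TMM factors (edgeR 4.0.16, R 4.3.3). Log2 ratios used a prior count of 1. Ratios in the text are those of scaled counts, with Clopper-Pearson limits, conditional on the sum, on counts divided by 4. They cover counting error only, and fragments are not known to be independent molecules. Gene models, exon overlap and readthrough tags came from GENCODE M21, which matched 55480 of 56393 genes. Counts are not known to be strand-specific, so overlapping and antisense genes cannot be told apart. The hairpin term was tested with edgeR, with DESeq2 1.42.0 and limma 3.58.1 (voom) as alternatives. The edgeR test was also run on simulated data in which all genes had the same dispersion and none differed with glucose. What it recovered there need not hold for these data. Alternatives changed the scaling, count minimum, prior count, fold threshold and overlap. Joining overlapping genes into loci was chosen after seeing the data.

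Genes were described singly by rule if they had a mean count of at least 100, under 10% shared exon bases and one of the 15 largest smaller ratios of their direction, if they stood on 1 of 26 gene lists, or if their mean level was at least 20 CPM. Some shared genes outside this rule are given with values too, among them Krt5, Krt12, Lama1, Usp29, Umad1 and several readthrough genes. The shared genes and the lists were chosen with earlier results of these data known. Python 3.11.15, pandas 2.3.3, numpy 2.4.6, scipy 1.17.1 and matplotlib 3.10.9 were used. One marker gene is not reported here.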

Additional observations from a re-analysis of the deposited data

How the results depend on the processing

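With 4 other scalings (DESeq2's size factors, upper-quartile factors, library totals, and TMM without mitochondrial and histone genes) the shared genes stayed the same 47 and 37. The counts depended on the count minimum: without one 819 genes were higher and 814 lower in both pairs, and with a mean count of at least 200 the numbers were 16 and 15. A threshold of 1.5-fold gave 169 and 121, and one of 3-fold gave 16 and 16. A prior count of 10 gave 29 and 29, and one smaller than 1 gave 48 and 37. Leaving out genes with 10% or more of their exon bases shared left 34 higher and 19 lower, and summing the counts of such genes per locus gave 33 and 23. Of the 35 genes described by rule, 32 kept a 2-fold ratio in both pairs with a prior count of 10, and all 35 did with the scalings and the smaller prior count. For the hairpin term DESeq2 called 48 genes where edgeR and limma-voom called 0 (400 at an unadjusted p under 0.05 in edgeR). The cause of that difference was not tested. No library could be left out, since each group had 1. The pairing within hairpin was part of the rule and of the additive model. At the depth of these libraries a gene under 12 units in both libraries of a pair has no ratio.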
